A study of Arabidopsis thaliana with 4 samples.

Results

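Roots and siliques of the Arabidopsis thaliana accession Col-0 were compared gene by gene in RNA sequencing data, with 1 library for each organ. Of the 34288 loci in the table, 21858 were compared, namely those with a usable value in both organs and at least 1 FPKM in roots or siliques. FPKM relates the sequenced fragments of a gene to its transcript length and to library depth. A further 12263 loci were under 1 FPKM in both organs, and 167 had no usable value in at least 1 of them. Roots were taken at an age of 2 weeks from plates with MS medium, and siliques at an age of 5 weeks from soil. Both sets of plants were wild type and were kept in long days at 22 °C. Organ, age and medium therefore changed together and cannot be told apart. Leaves, which the labels describe as the aerial part and which share age and plates with roots, and flowers, which share age and soil with siliques, are given beside the comparison, also with 1 library each. The labels used here give neither the developmental stage of the siliques nor the number of plants pooled. With 1 library per organ there is no spread between replicates, no test was possible, and every difference below compares these libraries only.

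A root takes up water and mineral ions through its epidermis and root hairs and passes them inward to the vascular tissue across the endodermis, whose walls carry the Casparian strip and later suberin. A silique is the fruit of a crucifer and is green for most of its life. It encloses the seeds, in which the embryo and endosperm grow inside a seed coat of maternal origin that makes tannins and mucilage. Storage proteins and oil accumulate late in seed filling.

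Differences are given as the log2 ratio of roots over siliques on the scale of log2(FPKM + 1), which understates the difference of genes with low values. A locus was counted at 4-fold when this log2 ratio was at least 2 or at most -2. At this size 2141 loci were higher in roots, or 9.8% of those compared, and 2506 loci were higher in siliques, or 11.5%. The median log2 ratio over all compared loci was 0.21, with quartiles of -0.72 and 0.83, and 12596 loci (57.6%) lay within 2-fold. At 2-fold, which is used below for the gene lists, 21% of the compared loci were higher in roots and 21.4% were higher in siliques. A locus near 0 in 1 organ passes the filter only through the other, where it then lies at about 2-fold or more. The file also gives the authors' interval around each value, and these intervals were wide. For 175 loci higher in roots (0.801%) and 186 loci higher in siliques (0.851%) the intervals of both organs were separate as well as the values 4-fold apart. Values near 0 rest on few fragments, since the steps between low values correspond to about 158 fragments per kilobase at 1 FPKM in roots and about 150 in siliques. In whole organs, fewer cells of a type and less RNA per cell cannot be told apart.

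**Figure D1:**
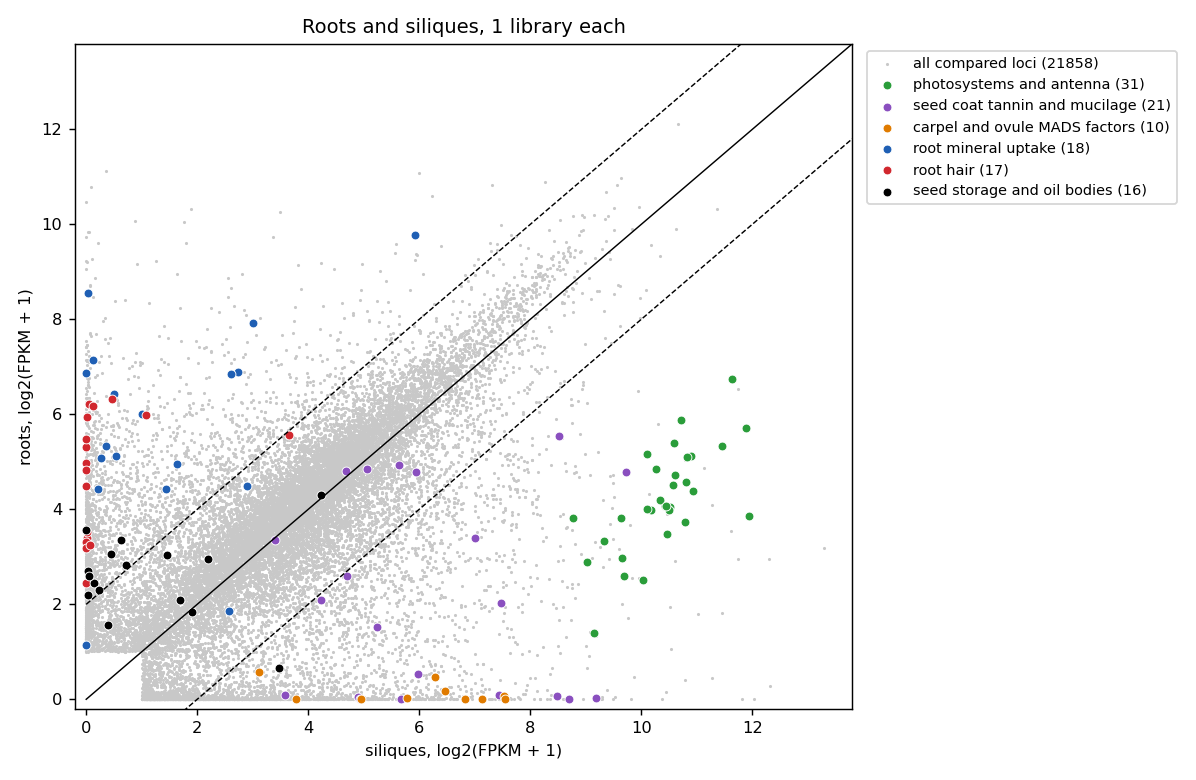
Levels of the 21858 compared loci in siliques (horizontal axis) and roots (vertical axis), both as log2(FPKM + 1), with the compared members of 6 gene lists in colour. The solid line marks equal levels and the dashed lines mark a log2 ratio of 2 and -2; the 31 photosystem genes sit to the lower right, and the 17 root hair genes lie along the left, all but CSLD3 and XTH14 at under 1 FPKM in siliques.

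The genes past 4-fold in siliques held a larger share of the FPKM summed over compared loci than those past 4-fold in roots. The genes higher in siliques held 38.04% of the summed silique FPKM, and those higher in roots held 19.2% of the summed root FPKM. These sums leave out loci without a usable value because of too much data, among them PYK10 and EXT3 in roots and RBCS1A and CAB1 in siliques. In roots, 253 of the higher genes reached 100 FPKM and 12 reached 1000 FPKM. In siliques, 445 reached 100 FPKM and 47 reached 1000 FPKM. The organ with the highest value was read over genes with a usable value in all 4 organs. Of 2138 such genes higher in roots, 94.5% were highest there. Of 2493 higher in siliques, 52.8% were highest in siliques, 28.6% in leaves and 18.6% in flowers. Under 1 FPKM in the other 3 organs were 776 of the former and 429 of the latter.

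The organ labels were set against marker genes. In roots, IRT1, CASP1, COBL9, EXPA7, PLT1, SMB and THAS1 all lay between 5.62 and 374 FPKM, and in siliques all were under 0.6 FPKM. The silique markers STK, SHP1, SHP2, IND, BAN, TT12, LEC1 and AGL62 lay between 3.53 and 582 FPKM in siliques. Among them AGL62 had the lowest silique value, at 3.53 FPKM, and the highest root value, at 1.83 FPKM. AGL62 thus lay within 2-fold and did not separate the organs at that size. The seed filling markers SESA1, CRA1 and OLEO1 did not separate the organs in this direction and are described with the storage genes.

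Mineral uptake genes stood high in roots. Of 22 entries in the list, 18 were compared. At 2-fold, 17 of these were higher in roots and none was higher in siliques. The other 4 entries were under 1 FPKM in both organs. One of those 4, the boric acid channel NIP5;1, has a second locus that also carries AT4G10370 and was at 59.1 FPKM in roots and 5.02 in siliques. Both loci have the same span, and the values cannot be divided between the genes. The median log2 ratio of the compared members was 4.41, against 0.21 over all compared loci. IRT1, the high affinity iron transporter of the root epidermis (chr4:10707426-10709015), was at 374 FPKM in roots and 0.0195 in siliques, beside 0.375 in leaves and 16.5 in flowers. FRO2, the ferric chelate reductase that acts with it, was at 141 FPKM in roots and 0.0863 in siliques, and its intervals were separate. AKT1, an inward potassium channel, was at 84.7 FPKM in roots and 0.414 in siliques. The phosphate transporter PHT1;1 was at 117 FPKM in roots and was listed at 0 in siliques. Reads of PHT1;1 may be shared with closely similar family members next to it. The ammonium transporter AMT1;3 was at 63.0 FPKM in roots and 1.013 in siliques. HAK5, a high affinity potassium transporter, was the exception, with 2.60 FPKM in roots and 4.92 in siliques. The list was thus high in roots across iron, potassium, phosphate and nitrogen. The nitrate transporters NRT2.1 and NRT2.2 were under 0.2 FPKM in both organs, whereas NRT1.1, which serves as nitrate transporter and sensor, was at 117 FPKM in roots and 5.64 in siliques.

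Root hair genes separated the organs by nearly absent levels in siliques. All 17 entries were compared and all 17 were at least 2-fold higher in roots, with a median log2 ratio of 4.83; 8 of them were listed at 0 in siliques. PRP3, a proline-rich wall protein of root hairs, was at 73.5 FPKM in roots and 0.0347 in siliques. AGP3, an arabinogalactan protein, was at 71.1 FPKM in roots and 0.0842 in siliques. The peroxidase PRX7 was at 60.3 FPKM in roots and 0.0102 in siliques. The regulators at the head of the hair pathway stood lower than these wall proteins. RHD6, the factor that starts hair outgrowth, was at 9.55 FPKM in roots and 0.00434 in siliques. RSL2 and RSL4, which act after it, were at 8.96 and 8.16 FPKM in roots and listed at 0 in siliques. CSLD3, a cellulose synthase-like protein needed for hair growth, was the member nearest to equal levels, with 46.0 FPKM in roots and 11.6 in siliques. Across the list the median was 30.5 FPKM in roots and 0.00434 in siliques, beside 0.0138 in leaves and 0.00841 in flowers.

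The endodermis and suberin list had 21 entries, of which 20 were compared and 1 (CASP4) shared a locus with another gene. It held 19 genes at least 2-fold higher in roots and 1 higher in siliques, with a median log2 ratio of 3.36. CASP1, a scaffold protein of the Casparian strip, was at 141 FPKM in roots and 0.00793 in siliques. CYP86A1, a fatty acid hydroxylase of suberin synthesis, was at 50.8 FPKM in roots and 0.646 in siliques. MYB36, which switches on the Casparian strip genes, was at 21.1 FPKM in roots and listed at 0 in siliques. PER64, the peroxidase that polymerises lignin in the strip, ran the other way. It was at 72.7 FPKM in roots and 429 in siliques, beside 0.409 in leaves and 1.22 in flowers (chr5:16852630-16855645). Its locus overlaps that of AT5G42190, which was at 65.1 FPKM in roots and 62.0 in siliques, and whether the reads were counted by strand is not given. Of the genes named in this comparison, AKT1, CASP1, ANR1, AGL16, SHP1, SHP2, SEP1, ALC, OLEO1, FUS3, L1L, CHS, F3H, TT12, MUM4, LTP11, CESA4, CESA7, CESA8, TIP2;1, TIP3;1, TIP3;2, CYCB1;1, UBC21 and TAS1A also lie at loci that overlap another, and the loci of AGL21 and MAH1 span many genes, so their values are uncertain in the same way. SHP1 and AGL16 also have a second locus under the same code, at 0 and 40.6 FPKM in roots and siliques for SHP1 and at 41.4 and 2.35 FPKM for AGL16. GPAT5, an acyltransferase of suberin that also acts in seed coats, was at 12.7 FPKM in roots, 38.8 in flowers and 0.794 in siliques.

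Root tip regulators were low in absolute level but pointed the same way. All 11 entries were at least 2-fold higher in roots, with a median log2 ratio of 1.77 and a median of 4.64 FPKM in roots. With a pseudocount of 5 FPKM in place of 1 the number past 2-fold was 4, and 5 when at least 5 FPKM in either organ was required. BRN1 and SMB, NAC factors of the root cap, were at 5.67 and 5.62 FPKM in roots and at 0.0281 and 0.0907 FPKM in siliques. PLT1, which maintains the stem cell niche, was at 5.98 FPKM in roots and 0.583 in siliques. Of the 8 triterpene cluster genes, 7 were compared and MRN1 was under 1 FPKM in both organs. All 7 were at 0.0908 FPKM or lower in siliques, so they passed the filter through roots alone. Their place at 2-fold or more in roots follows from this and from the pseudocount of 1 FPKM. The median log2 ratio was 3.32, and 5 of the 7 were higher in roots at 4-fold. PEN1, an oxidosqualene cyclase, was at 25.02 FPKM in roots and 0.0908 in siliques, and THAH, a P450 of the thalianol cluster, was at 14.3 FPKM in roots and listed at 0 in siliques. Both had separate intervals.

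The ER body genes had the highest median of all lists, at a log2 ratio of 7.63 over 5 compared members, all higher in roots. ER bodies are compartments of the endoplasmic reticulum in Brassicales that store beta-glucosidases. BGLU21 was at 591 FPKM in roots and 0.00376 in siliques. PBP1, a lectin that binds the main beta-glucosidase PYK10, was at 1061 FPKM in roots and 2.40 in siliques. NAI2, needed to form ER bodies, was at 323 FPKM in roots and 1.198 in siliques. PYK10 itself could not be compared, since its root value carries the status for too much data and is listed at 0. It was at 208 FPKM in leaves and 0.0347 in siliques. BGLU21 and BGLU22 are close copies whose reads may be shared.

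**Figure D2:**
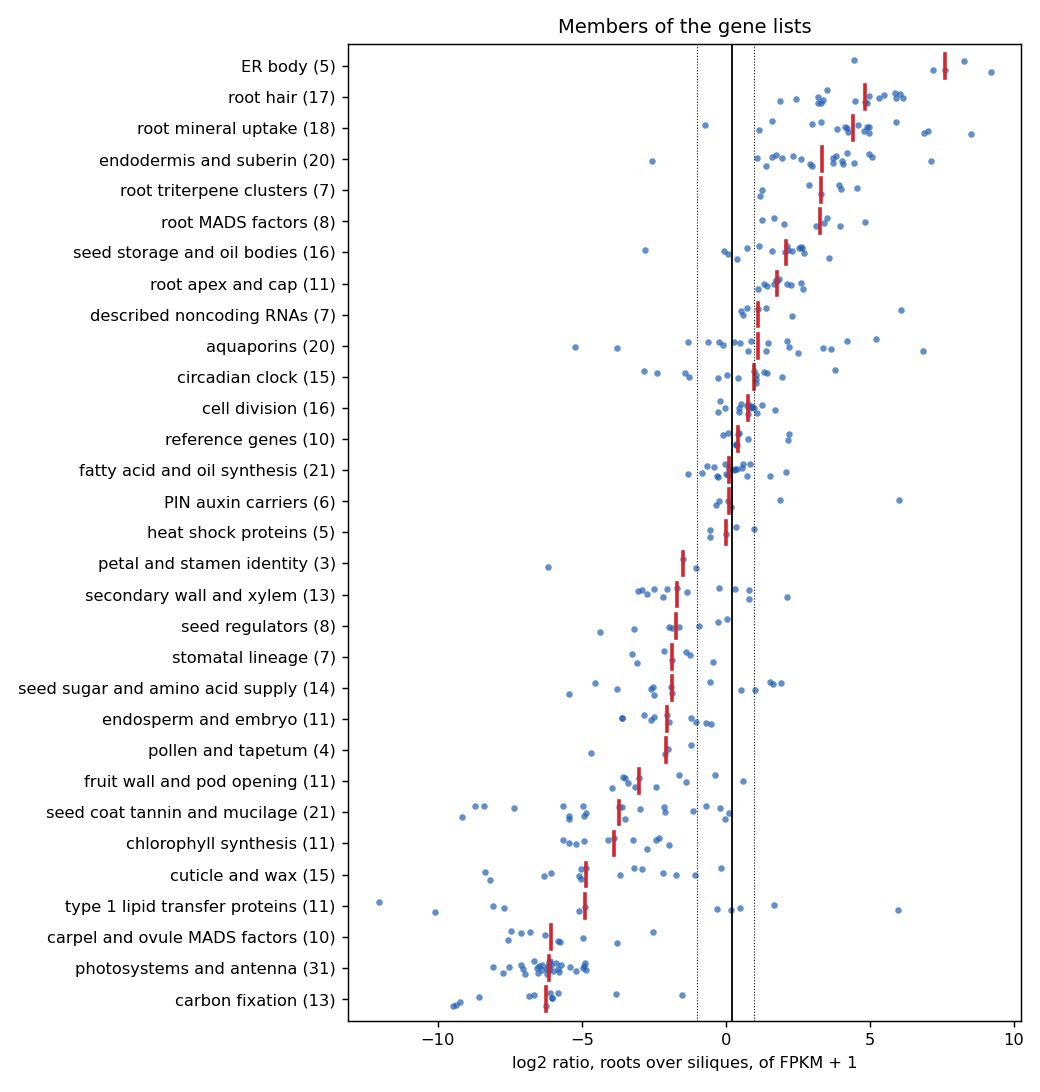
Log2 ratio of roots over siliques (of FPKM + 1) for each compared member of the 31 gene lists, with the number of members in brackets. Blue points are genes, red bars are list medians, the solid line is the median of all compared loci (0.21) and the dotted lines mark 2-fold; medians run from 7.63 for ER bodies to -6.25 for carbon fixation.

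MADS factors, which specify organ identity in flowers and fruit and also act in roots, are given as a root list and a carpel and ovule list. Of 61 compared MADS genes by product name, 7 (11.5%) were higher in roots and 22 (36.1%) in siliques at 4-fold. Over all protein-coding genes the shares were 10.04% and 11.6%. The opposite directions of the lists thus do not describe the whole family. The 8 root members were all at least 2-fold higher in roots, with a median log2 ratio of 3.28. AGL21 was at 27.5 FPKM in roots and listed at 0 in siliques. AGL14 was at 14.9 FPKM in roots and listed at 0 in siliques, and AGL17 was at 11.1 FPKM in roots and 0.0529 in siliques. ANR1, known for the lateral root response to nitrate, was at 15.1 FPKM in roots and 0.5003 in siliques. XAL1 was at 24.2 FPKM in roots and 1.88 in siliques. AGL16, at 39.1 FPKM in roots and 15.7 in siliques, was the least separated by the locus used here. Its second locus, at 41.4 and 2.35 FPKM, would not place it there. AGL42 was at 15.9 FPKM in roots, 12.7 in flowers and 3.101 in siliques. AGL19 was the lowest in roots, at 2.3 FPKM.

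The carpel and ovule MADS factors ran the opposite way in all 10 compared members, with a median log2 ratio of -6.06. AG, which specifies carpels, was listed at 0 in roots and was at 30.0 FPKM in siliques and 41.9 in flowers. STK, which specifies ovules, was at 0.0556 FPKM in roots, 46.6 in flowers and 183 in siliques. SHP1 and SHP2, which pattern the valve margin where the pod opens, were at 77.2 and 86.9 FPKM in siliques and at 0.382 and 0.121 FPKM in roots. FUL, a factor of the fruit valves, was at 54.2 FPKM in siliques and 0.0205 in roots. The SEP cofactors remained high in siliques, with SEP3 at 186 FPKM, SEP2 at 140 FPKM, SEP1 at 112 FPKM and SEP4 at 7.66 FPKM, against values of 0 to 0.488 FPKM in roots. SEP1, SEP3 and SHP2 also had separate intervals. TT16, a factor of the seed coat endothelium, was at 12.8 FPKM in siliques and listed at 0 in roots, and AGL63 was under 1 FPKM in both. STK, SHP1 and SHP2 were higher in siliques than in flowers, whereas AG was lower.

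The fruit wall list followed, with 9 of 11 compared members at least 2-fold higher in siliques and a median log2 ratio of -3.02; 6 of its 17 entries were under 1 FPKM in both organs. ALC, a factor of the separation layer, was at 4.56 FPKM in roots and 84.0 in siliques. IND, which acts in the valve margin, was listed at 0 in roots and was at 7.11 FPKM in siliques. NST1 and NST3, which switch on lignified walls, were at 10.9 and 7.93 FPKM in siliques and at 0.0115 and 0.00448 FPKM in roots. CRC, a carpel and nectary factor, was at 0.0332 FPKM in siliques and 27.97 in flowers, so early carpel genes were not uniformly present. SPT, a bHLH factor of the carpel margin, was at 11.0 FPKM in roots and 6.85 in siliques.

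**Figure D3:**
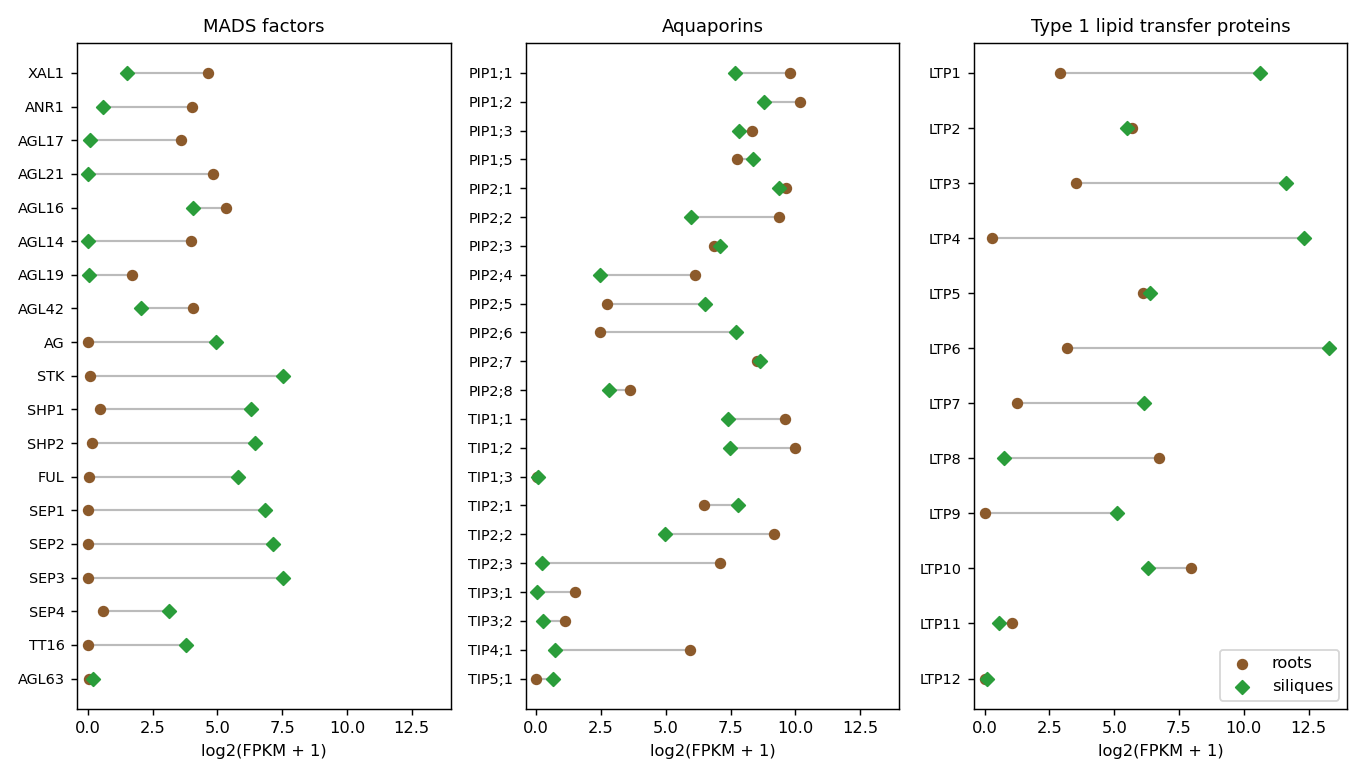
Levels in roots (brown circles) and siliques (green diamonds) as log2(FPKM + 1) for the members of the MADS, aquaporin and type 1 lipid transfer protein lists that have a row, with grey lines joining both organs. The 8 root MADS factors and the 10 compared carpel and ovule MADS factors run in opposite directions; LTP4 and LTP6 show the widest gaps of the third panel.

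Tannin genes of the seed coat stood high in siliques. The seed coat list had 22 entries, of which 21 were compared and 1 (AHA10) shared a locus with another gene. It held 17 members at least 2-fold higher in siliques and 0 at least 2-fold higher in roots, with a median log2 ratio of -3.72. BAN, the anthocyanidin reductase that commits the pathway to proanthocyanidins, was at 0.0134 FPKM in roots and 582 in siliques, beside 0.00464 in leaves and 10.503 in flowers (chr1:22791168-22792800). DFR, the reductase before it, was at 0.00449 FPKM in roots and 417 in siliques, beside 0.640 in leaves and 4.43 in flowers. LDOX was at 0.0473 FPKM in roots and 355 in siliques, with separate intervals. TT19, a glutathione transferase needed to carry these flavonoids to the vacuole, was at 0.0584 FPKM in roots and 173 in siliques, and TT12, a vacuolar transporter, was at 0.0108 FPKM in roots and 50.1 in siliques. The late steps were thus near 0 in roots.

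Earlier flavonoid steps, which also serve flavonols, were present in roots. CHS, the entry enzyme, was at 26.4 FPKM in roots, 340 in flowers and 847 in siliques. CHI was at 3.06 FPKM in roots and 176 in siliques. F3H was at 9.53 FPKM in roots and 127 in siliques, at a locus that overlaps AT3G51238 (75.1 FPKM in siliques). The regulators TT2 and TT8 followed the late enzymes, whereas TTG1 did not. TT2, the MYB factor of the tannin complex, was at 0.0313 FPKM in roots and 28.7 in siliques. TT8, its bHLH partner, was at 0.0113 FPKM in roots and 29.5 in siliques. TTG1, the WD repeat partner that also acts in root hairs and trichomes, was at 27.8 FPKM in roots and 32.4 in siliques. Mucilage genes differed among themselves. PER36, a peroxidase of mucilage release, was at 0.0708 FPKM in roots and 11.0 in siliques, and the subtilase SBT1.7 was at 45.6 FPKM in roots and 367 in siliques. MUM2 was at 26.8 FPKM in roots and 24.5 in siliques, while MUM4 was at 29.8 FPKM in roots and 49.0 in siliques.

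The promoters of BAN and DFR are shown because these genes have the lowest ratios of the list. Each is the 250 bases before the annotated gene start in the RefSeq annotation of TAIR10.1, read 5′ to 3′ on the strand of the gene. Capitals mark the G-box, CACGTG, a palindrome bound by bHLH and bZIP factors. BAN is read from chr1:22792804-22793053 (minus strand) and DFR from chr5:17166033-17166282 (minus strand).
BAN: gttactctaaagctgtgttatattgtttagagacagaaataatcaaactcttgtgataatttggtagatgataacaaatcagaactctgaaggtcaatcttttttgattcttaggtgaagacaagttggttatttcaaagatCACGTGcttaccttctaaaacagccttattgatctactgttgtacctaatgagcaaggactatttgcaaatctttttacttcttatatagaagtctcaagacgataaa
DFR: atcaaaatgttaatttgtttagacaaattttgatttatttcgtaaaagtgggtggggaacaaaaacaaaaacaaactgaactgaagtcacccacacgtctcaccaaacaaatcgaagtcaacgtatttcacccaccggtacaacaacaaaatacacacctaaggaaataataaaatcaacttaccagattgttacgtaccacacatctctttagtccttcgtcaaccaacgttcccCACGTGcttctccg

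The G-box begins 108 bases upstream of the gene start in BAN and 14 bases upstream in DFR. Among all 22 seed coat promoters of this length, 5 (22.7%) held a G-box, against 6.49% of 27443 protein-coding promoters. A match is a description of the letters and not evidence of binding. Of genes higher in siliques at 4-fold, 7.56% of promoters held it, and of genes higher in roots, 6.17%.

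Seed regulators were higher in siliques but at modest levels. Of 12 entries, 8 were compared, 5 were at least 2-fold higher in siliques and 0 in roots, with a median log2 ratio of -1.74; 3 were under 1 FPKM in both organs and 1 was not found. LEC1, a master regulator of embryo identity, was listed at 0 in roots, was at 0.00627 FPKM in leaves and 0.0250 FPKM in flowers, and was at 19.4 FPKM in siliques. MYB118, a factor of the endosperm, was at 0.00644 FPKM in roots and 8.10 in siliques. L1L, a close relative of LEC1, was at 0.184 FPKM in roots and 3.31 in siliques. FUS3 was at 0.0236 FPKM in roots and 2.98 in siliques. LEC2 was at 0.00387 FPKM in roots and 2.07 in siliques. ABI3, which drives seed maturation, was at 0.1002 FPKM in roots and 1.09 in siliques, and ABI5 was at 4.70 FPKM in roots and 4.56 in siliques. LEC1 thus stood above FUS3, LEC2 and ABI3 in siliques.

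Endosperm and embryo genes were at least 2-fold higher in siliques in 9 of 11 compared members, with a median log2 ratio of -2.05. Of 13 entries, 2 were under 1 FPKM in both organs. FWA, an imprinted homeodomain gene, was at 0.0113 FPKM in roots and 11.4 in siliques. PHE1, an imprinted MADS gene of the endosperm, was at 0.0931 FPKM in roots and 12.3 in siliques. ZOU, which controls endosperm breakdown, was listed at 0 in roots and leaves and was at 6.201 FPKM in siliques. ALE1 was listed at 0 in the other 3 organs and was at 5.02 FPKM in siliques. These genes of filial tissue were thus present in siliques at a few FPKM.

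Seed storage genes did not follow. Of 22 entries, 16 were compared and 6 were under 1 FPKM in both organs. At 2-fold, 11 were higher in roots and 1 in siliques, and the median log2 ratio of the compared members was 2.096. Those 11 other than OLEO1 were under 1 FPKM in siliques and passed the filter through roots alone, which favours a place on the root side. With a pseudocount of 5 FPKM the number higher in roots was 4, and without the filter the median was 0.97. SESA5, an albumin, was at 10.9 FPKM in roots, 0.256 in leaves and listed at 0 in flowers and siliques. SESA3 was at 9.30 FPKM in roots and 0.549 in siliques, beside 0.148 in leaves and 0.0255 in flowers. SESA1 was at 0.518 FPKM in roots and 0.605 in siliques, under the filter in both. All compared members other than OLEO3 and RAB18 lay between 1.96 and 10.9 FPKM in roots, so the list was low in both organs. The globulin CRU3 was at 5.47 FPKM in roots and 0.0285 in siliques, and CRA1 was at 6.15 FPKM in roots and 0.649 in siliques. The vicilin-like PAP85 was at 7.33 FPKM in roots and 0.369 in siliques. EM6, a late embryogenesis protein, was at 5.01 FPKM in roots and 0.0407 in siliques. OLEO3, an oil body protein, was the exception, with 0.569 FPKM in roots and 10.1 in siliques. OLEO1 was at 7.27 FPKM in roots and 1.74 in siliques, and RAB18, a dehydrin, was near equal at 18.9 and 17.8 FPKM. The seed filling markers were thus not those that set this silique library apart, and the part that silique stage or remains of the sown seed played in these values was not tested.

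**Figure D4:**
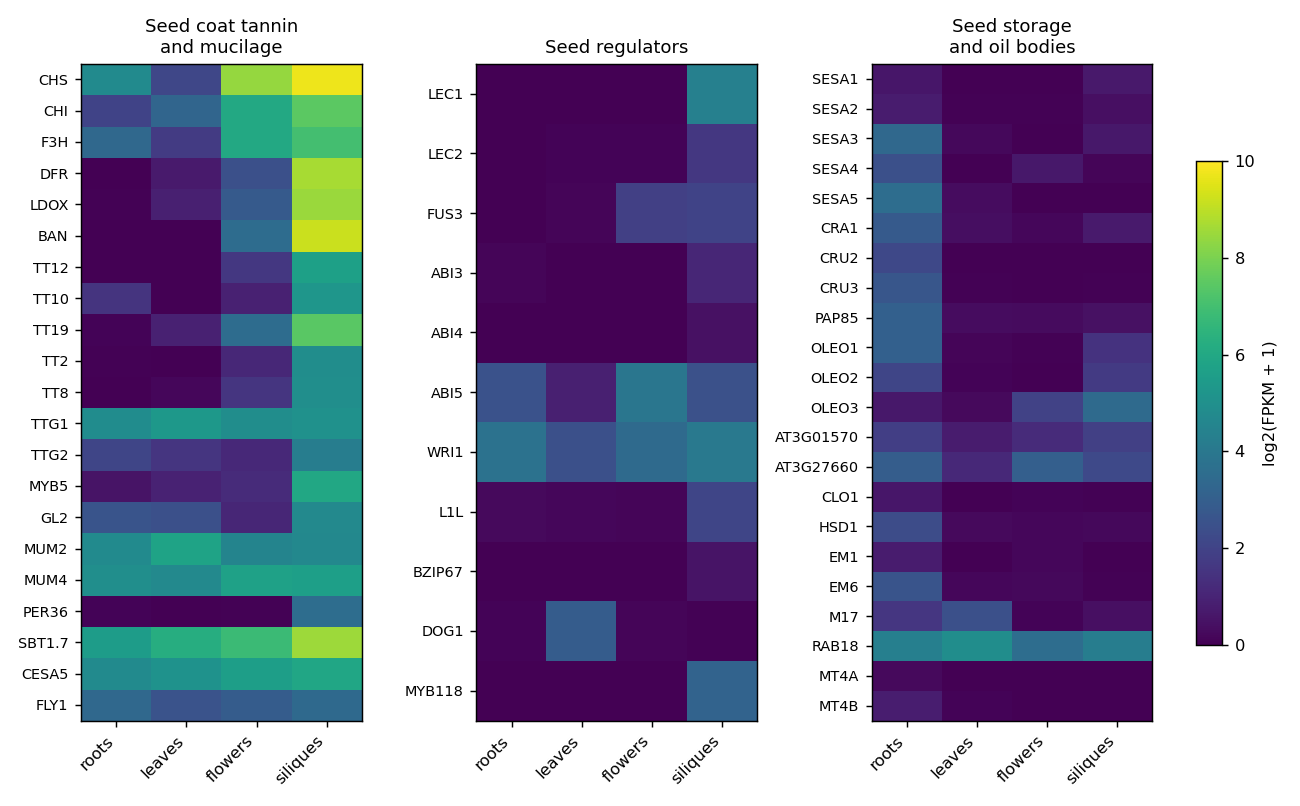
Levels as log2(FPKM + 1) in roots, leaves, flowers and siliques for the seed coat, seed regulator and seed storage lists (brighter colours are higher, from 0 to 10). The silique column is brightest for tannin genes such as BAN (582 FPKM) and for LEC1 among the regulators, while most storage genes are faint everywhere and highest in roots; AT3G01570 and AT3G27660 are oleosin genes given by code.

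Promoters of 3 albumin genes are shown because storage promoters carried known seed motifs although the genes were low in both organs. They are the 250 bases before the RefSeq gene start in TAIR10.1. Capitals mark the RY core, CATGCA (or TGCATG on the other strand), which B3 factors such as ABI3 and FUS3 bind, and the G-box, CACGTG. SESA1 is read from chr4:13607079-13607328 (plus strand), SESA3 from chr4:13611546-13611795 (plus strand) and SESA5 from chr5:22239188-22239437 (minus strand).
SESA1: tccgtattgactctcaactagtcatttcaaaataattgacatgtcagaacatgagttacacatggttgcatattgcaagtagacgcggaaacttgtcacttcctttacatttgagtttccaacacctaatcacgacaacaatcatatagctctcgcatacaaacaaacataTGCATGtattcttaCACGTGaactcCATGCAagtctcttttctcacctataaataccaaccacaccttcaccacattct
SESA3: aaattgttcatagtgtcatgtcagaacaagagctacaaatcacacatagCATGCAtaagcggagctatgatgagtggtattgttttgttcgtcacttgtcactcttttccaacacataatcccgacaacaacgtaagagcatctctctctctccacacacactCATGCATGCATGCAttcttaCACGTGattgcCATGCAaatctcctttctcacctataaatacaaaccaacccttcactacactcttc
SESA5: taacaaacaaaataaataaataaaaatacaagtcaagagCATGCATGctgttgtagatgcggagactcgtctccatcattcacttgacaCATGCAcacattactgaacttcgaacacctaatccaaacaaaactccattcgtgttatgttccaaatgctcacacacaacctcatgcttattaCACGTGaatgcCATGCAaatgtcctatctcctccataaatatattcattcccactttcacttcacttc

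In SESA1, SESA3 and SESA5 a G-box begins 65, 67 and 68 bases upstream of the start, and an RY core on the strand of the gene follows 54, 56 and 57 bases upstream. Overlapping RY matches on both strands were counted once per promoter in the shares. Of the 22 storage list promoters, 15 (68.2%) held an RY core, against 8.43% of 27443 protein-coding promoters, and 8 (36.4%) held a G-box, against 6.49%. The RY core was also found in 9 of 12 pollen and tapetum promoters (75%). Of genes higher in roots at 4-fold, 12.3% of promoters held it, and of genes higher in siliques, 11.1%.

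Oil synthesis stood nearly equal. Of 22 entries, 21 were compared, 2 were at least 2-fold higher in roots and 1 in siliques. The median log2 ratio was 0.13, and it turned to -0.08 when the silique values were rescaled by the median of ratios. FAD2, the main oleate desaturase, was at 622 FPKM in roots and 575 in siliques. SUS3, a sucrose synthase, was at 12.9 FPKM in roots and 2.24 in siliques, and the thioesterase FATB was at 56.6 FPKM in roots and 141 in siliques. FAE1, the elongase that makes the long chain fatty acids of seed oil, was listed at 0 in roots and was at 0.332 FPKM in siliques. Carriers of sugar and amino acids went both ways, with 8 of 14 members higher in siliques and 4 higher in roots at 2-fold. UMAMIT14, an amino acid exporter, was at 0.672 FPKM in roots and 72.5 in siliques, with separate intervals. SUC5, a sucrose carrier of the endosperm, was at 0.0277 FPKM in roots and 23.1 in siliques. CWINV4, a cell wall invertase, was at 0.0105 FPKM in roots, 46.3 in flowers and 12.8 in siliques. AAP2, an amino acid permease of the phloem, was at 491 FPKM in roots and 128 in siliques, and UMAMIT18 was at 58.0 FPKM in roots and 18.0 in siliques.

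All 31 photosystem and antenna genes were at least 2-fold higher in siliques, with a median log2 ratio of -6.14 and a range of -8.09 to -4.84. Their summed level was 720 FPKM in roots and 47908 FPKM in siliques. LHCB1.1, an antenna protein of photosystem II, was at 13.5 FPKM in roots and 3945 in siliques. LHCB2.3 was at 1.64 FPKM in roots and 569 in siliques. PSBS, which dissipates excess light, was at 4.71 FPKM in roots and 1048 in siliques, beside 1126 in leaves and 827 in flowers. The LHCB1 and LHCB2 genes are close copies whose reads may be shared. Over the 24 members with a usable value in all organs, the median was 15.3 FPKM in roots and 1336 in siliques, beside 2579 in leaves and 636 in flowers. By these medians siliques lay between flowers and leaves, and roots were lowest.

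Carbon fixation genes were also higher in siliques in all 13 compared members, with a median log2 ratio of -6.25. CA1, a chloroplast carbonic anhydrase, was at 1.09 FPKM in roots and 1481 in siliques. RBCS3B, a small subunit of Rubisco, was at 6.72 FPKM in roots and 5068 in siliques, and RBCS2B was at 2.46 FPKM in roots and 2089 in siliques, beside 1873 in leaves and 794 in flowers. RBCS1B, RBCS2B and RBCS3B are near-identical neighbours, so their separate values are uncertain. RBCS1A could not be compared, because its silique value carries the status for too much data, and it was at 71.9 FPKM in roots and 4855 in flowers. TKL1, a transketolase, was the least separated at 178 FPKM in roots and 509 in siliques. The chlorophyll synthesis list was higher in siliques in all 11 members, with a median log2 ratio of -3.87. GUN5, a subunit of magnesium chelatase, was at 6.64 FPKM in roots and 385 in siliques. CHLD, another subunit of the same enzyme, was at 17.55 FPKM in roots and 71.4 in siliques. GLK1 and GLK2, which activate these genes, were at 13.3 and 33.6 FPKM in siliques, below their leaf values of 108 and 152 FPKM.

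The RBCS2B promoter is shown as that of a gene low in roots and high in siliques. It is the 250 bases before the RefSeq gene start in TAIR10.1, chr5:15382072-15382321 (minus strand), with the G-box, CACGTG, and the I-box core, GATAAG, in capitals on either strand.
RBCS2B: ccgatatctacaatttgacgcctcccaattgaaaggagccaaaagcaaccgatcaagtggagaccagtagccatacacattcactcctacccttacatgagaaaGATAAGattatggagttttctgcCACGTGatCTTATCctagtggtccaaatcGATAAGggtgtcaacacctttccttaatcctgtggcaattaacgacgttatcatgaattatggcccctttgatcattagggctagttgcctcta

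The G-box begins 123 bases upstream of the gene start, and the I-box core lies 146, 115 and 94 bases upstream. The I-box was chosen after the values were seen. Of 14 carbon fixation promoters, 3 (21.4%) held a G-box, and 6 of 31 photosystem promoters (19.4%) did. The I-box core was in 8 of 31 photosystem promoters (25.8%), against 12.3% of all protein-coding promoters. It was in 13.5% of promoters of genes higher in roots at 4-fold and in 14.2% for genes higher in siliques.

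Surface lipid genes were higher in siliques. In the cuticle and wax list 14 of 15 compared members were at least 2-fold higher in siliques, with a median log2 ratio of -4.84, and SHN1 was under 1 FPKM in both organs. CER1, an enzyme of alkane formation, was at 0.580 FPKM in roots and 519 in siliques, beside 27.4 in leaves and 455 in flowers. MAH1, which oxidises alkanes to secondary alcohols and ketones, was listed at 0 in roots and was at 289 FPKM in siliques. CER6, an elongase of wax precursors, was at 4.36 FPKM in roots and 430 in siliques. DCR, an acyltransferase of cutin, was at 1.61 FPKM in roots and 173 in siliques. GPAT6, a cutin acyltransferase, was near equal at 12.4 FPKM in roots and 13.9 in siliques, while flowers had 112 FPKM. The list medians of 27.5 FPKM in leaves and 112 FPKM in flowers also lay above the 4.36 FPKM of roots.

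Type 1 lipid transfer proteins, small secreted proteins that bind lipids, differed in both directions within the family. LTP6 had the highest silique value of the compared loci, with 8.05 FPKM in roots and 10042 in siliques, beside 82.8 in leaves and 1725 in flowers. LTP4 had the lowest ratio of all compared loci, with a log2 ratio of -12.05 from 0.207 FPKM in roots to 5104 in siliques (chr5:23925085-23925852). LTP3, its neighbour, was at 10.6 FPKM in roots and 3139 in siliques. LTP1 was at 6.54 FPKM in roots, 3468 in flowers and 1560 in siliques, LTP7 was at 1.395 FPKM in roots and 69.2 in siliques, and LTP9 was listed at 0 in the other 3 organs and was at 33.2 FPKM in siliques. LTP8 ran the opposite way, at 106 FPKM in roots and 0.687 in siliques. LTP10 was at 247 FPKM in roots and 77.6 in siliques. LTP2 (50.7 and 44.4 FPKM) and LTP5 (67.2 and 82.2 FPKM) were near equal, LTP11 was near 1 FPKM in roots and below it in siliques, and LTP12 was under 1 FPKM in both but at 315 FPKM in flowers. The LTP names from 8 to 11 are those of the list, since the reference gives these loci by code.

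Water channels were mostly abundant in both organs. Of 23 entries, 20 were compared, 10 were at least 2-fold higher in roots and 3 in siliques, with a median log2 ratio of 1.13. PIP1;4 shared a locus with another gene, and the pollen channels TIP1;3 and TIP5;1 were under 1 FPKM in both. TIP2;3 was at 136 FPKM in roots and 0.174 in siliques. TIP4;1 was at 60.02 FPKM in roots and 0.653 in siliques, and TIP2;2 was at 574 FPKM in roots and 30.2 in siliques. Among plasma membrane channels, PIP2;2 was at 651 FPKM in roots and 61.2 in siliques, PIP2;4 was at 68.1 and 4.54 FPKM, and PIP1;1 was at 874 and 201 FPKM. TIP1;2, TIP1;1 and PIP1;2 were at 1020, 772 and 1154 FPKM in roots and at 177, 168 and 439 FPKM in siliques. PIP2;6 ran the other way, with 4.56 FPKM in roots, 283 in leaves and 211 in siliques. PIP2;5 was at 5.57 FPKM in roots and 89.3 in siliques, and TIP2;1 was at 87.3 FPKM in roots and 218 in siliques. PIP2;1 (806 and 656 FPKM), PIP2;7 (369 and 391 FPKM), PIP1;3 (318 and 226 FPKM), PIP1;5 (217 and 332 FPKM) and PIP2;3 (115 and 135 FPKM) lay within 2-fold. PIP2;8 was at 11.1 FPKM in roots and 6.09 in siliques, and the seed channels TIP3;1 and TIP3;2 were at 1.81 and 1.17 FPKM in roots and at 0.0162 and 0.186 FPKM in siliques. TIP3;1 and TIP3;2, like the storage genes, were thus higher in roots at low levels.

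The auxin carriers differed by PIN2, which moves auxin shootward in the root epidermis. It was at 69.7 FPKM in roots and 0.0994 in siliques, beside 0.457 in leaves and 0.461 in flowers. PIN3 (22.3 and 28.7 FPKM), PIN4 (14.75 and 14.05 FPKM), PIN7 (26.0 and 22.7 FPKM) and PIN5 (1.87 and 2.38 FPKM) lay within 2-fold, and PIN6 and PIN8 were under 1 FPKM in both. The PIN median was 0.13 and turned to -0.13 under the median of ratios scaling.

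Secondary wall genes were at least 2-fold higher in siliques in 8 of 13 compared members, with a median log2 ratio of -1.68. The cellulose synthases CESA4, CESA7 and CESA8 were at 171, 89.9 and 100.4 FPKM in siliques and at 21.8, 15.0 and 14.2 FPKM in roots. COBL4, a wall protein that acts with them, was at 9.15 FPKM in roots and 82.9 in siliques. The protease XCP1, which acts in the death of vessel cells, was higher in roots at 62.7 FPKM against 13.7 in siliques. Its relative XCP2, at 61.2 FPKM in roots and 34.5 in siliques, lay within 2-fold. VND6 and VND7, which start vessel formation, were between 0.796 and 2.15 FPKM in both organs.

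Markers of other cell types were also read in the silique library. Pollen and tapetum genes were near 0 in roots, and of 12 entries 8 were under 1 FPKM in both organs. VGD1, a pectin methylesterase of pollen tubes, was at 24.9 FPKM in siliques and 343 in flowers, and PPME1 was at 3.06 FPKM in siliques and 258 in flowers. The summed level of the 12 genes was 0.320 FPKM in roots and 33.4 FPKM in siliques, and ATA7 was listed at 0 in both. AP3, which specifies petals and stamens, was at 0.118 FPKM in roots, 120 in flowers and 79.0 in siliques, while its partner PI was at 2.89 FPKM in siliques and 241 in flowers. The part that attached flower remains played in silique values was not tested. In the stomatal list 6 of 7 compared members were at least 2-fold higher in siliques, with a median log2 ratio of -1.85. EPFL9, which promotes stomata, was at 0.0715 FPKM in roots and 9.17 in siliques, and FAMA, which acts in guard cells, was at 0.00854 and 7.48 FPKM. SPCH and MUTE were under 1 FPKM in both organs.

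Cell division genes were close, with 3 of 16 at least 2-fold higher in roots, 0 in siliques and a median log2 ratio of 0.78. CYCB2;1 was at 4.63 FPKM in roots and 0.722 in siliques, and CYCB1;1 was at 7.68 and 3.099 FPKM. Clock genes went both ways. ELF4 and TOC1, evening genes, were at 84.9 and 81.7 FPKM in roots and at 5.25 and 20.6 FPKM in siliques. CCA1 and LHY, morning genes, were at 1.48 and 1.26 FPKM in roots and at 16.7 and 11.0 FPKM in siliques. In all, 7 of 15 clock genes were higher in roots and 4 in siliques at 2-fold, with a median log2 ratio of 0.97. The labels used here give no hour of harvest, and its part in these values was not tested.

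Genes often used as references were not all level. ACT2 was at 698 FPKM in roots and 155 in siliques, and ACT8 was at 619 and 133 FPKM. UBC21 (43.7 and 46.2 FPKM) and PP2AA3 (48.9 and 35.1 FPKM) were near equal. The 10 members had a median log2 ratio of 0.41, with 2 higher in roots at 2-fold. Of 8 heat shock entries 5 were compared and none (0) was past 2-fold in either direction, with a median log2 ratio of -0.01. Among described noncoding RNAs, AT4, which is known from phosphate starvation, was at 131 FPKM in roots, 21.8 in leaves and 0.953 in siliques. The trans-acting siRNA precursor TAS1A was at 18.1 FPKM in roots and 2.86 in siliques, and 4 of 7 compared members were higher in roots at 2-fold.

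Genes outside the lists were taken by the size of their difference. GRP9, a glycine-rich protein (chr2:1993082-1994174), was at 2227 FPKM in roots and 0.288 in siliques, with a log2 ratio of 10.76. DR4, annotated as repressed by drought, was at 1776 FPKM in roots and 0.0654 in siliques. MLP34, a major latex-type protein, was at 1421 FPKM in roots and 0.00187 in siliques. The extensin-like AT3G28550 and AT1G23720 were at 847 and 603 FPKM in roots and listed at 0 in siliques, although extensins share repeats that reads may not resolve. The glycine-rich AT2G05510 was at 922 FPKM in roots and 0.0203 in siliques, and the TRAF-like AT5G26280 was at 911 FPKM and 0.0362 FPKM. EARLI1, a hybrid proline-rich protein, was at 778 FPKM in roots and 0.153 in siliques, and the peroxidase AT3G32980 was at 1083 and 0.847 FPKM. With separate intervals as well, the lectin JAL33 was at 535 FPKM in roots and listed at 0 in siliques, EXT13 was at 138 FPKM and 0.00872 FPKM, and the lipid transfer-type AT5G46900 was at 171 FPKM and listed at 0. JAL31 was at 114 FPKM in roots and listed at 0 in siliques.

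On the silique side, the highest ratios after LTP4 belonged to inhibitors of invertase or pectin methylesterase. AT1G56100 was listed at 0 in roots and leaves and was at 4175 FPKM in siliques and 18.1 in flowers (chr1:20980369-20984058). AT4G15750, of the same superfamily, was at 0.00775 FPKM in roots, 21.8 in flowers and 3604 in siliques. DELTA-VPE, a vacuolar processing enzyme known from the inner seed coat, was at 0.363 FPKM in roots, 29.6 in flowers and 2492 in siliques. These 3 genes were thus far above flowers as well as roots. TGG2, a myrosinase that cleaves glucosinolates, was at 0.318 FPKM in roots, 1803 in flowers and 1763 in siliques. The thionin THI2.1 was listed at 0 in roots and was at 1333 FPKM in siliques and 775 in flowers, and VSP2, a vegetative storage protein induced by jasmonate, was at 2.52 FPKM in roots and 2815 in siliques. BAM5, a beta-amylase, was at 0.00261 FPKM in roots and 898 in siliques. The hydrolase AT5G47350 was at 0.115 FPKM in roots and 1387 in siliques, at a locus that overlaps another. With separate intervals as well, AT5G09370 and AT3G49270 were at 618 and 267 FPKM in siliques and listed at 0 in roots, and MIOX1, an oxidase of myo-inositol, was at 1.69 FPKM in roots and 537 in siliques. The uncharacterised AT5G42235 was at 0.579 FPKM in roots and 335 in siliques.

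Several families leaned strongly to one organ, against 10.04% of all 19970 protein-coding genes higher in roots and 11.6% higher in siliques at 4-fold. Class III peroxidases, which act on wall phenolics and hydrogen peroxide, had 40 of 64 compared members (62.5%) higher in roots and 4 higher in siliques. WRKY factors, many of which act in defence, had 27 of 54 (50%) higher in roots and 2 in siliques. WRKY65 was at 143 FPKM in roots and 1.55 in siliques, and WRKY12 was listed at 0 in roots and was at 5.48 FPKM in siliques. Receptor kinases had 52 of 217 (23.96%) higher in roots and 10 in siliques. The kinase CRK25 was at 34.2 FPKM in roots and 0.0239 in siliques. Proteins with late embryogenesis abundant (LEA) in their product name also leaned to roots, with 17 of 66 (25.8%) higher there and 3 in siliques. The name match takes in LEA protein-like and LEA hydroxyproline-rich glycoprotein entries, so the set is wider than the LEA genes of seeds.

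The set of defensin-like, other cysteine-rich and self-incompatibility type proteins had 111 of 152 (73.0%) higher in siliques and 8 in roots. Of these 152, 35 were self-incompatibility type proteins, with 20 higher in siliques. The defensin-like and cysteine-rich members are small secreted peptides, some of which act in defence and others in the meeting of pollen tube and ovule. SCRL10 was listed at 0 in roots and leaves and was at 363 FPKM in siliques and 1.29 in flowers. LCR38 was listed at 0 in roots and leaves and was at 289 FPKM in siliques and 3.52 in flowers. AT4G22212, a defensin-like gene, ran the other way at 80.6 FPKM in roots and 0.0325 in siliques. Pectin methylesterases and their inhibitors had 45 of 91 (49.5%) higher in siliques and 12 in roots, and pectin lyases had 23 of 68 (33.8%) and 6. Subtilases, which are secreted proteases, had 15 of 39 (38.5%) higher in siliques and 4 in roots. Expansins, which loosen walls, were divided, with 10 of 26 higher in siliques and 6 in roots. EXPA23 was listed at 0 in roots and was at 225 FPKM in siliques, whereas EXPA7 of root hairs was at 30.5 FPKM in roots and listed at 0 in siliques. Of the 350 ribosomal proteins, 39 (11.1%) were higher in siliques, a share close to the 11.6% of all protein-coding genes, and 1 (0.286%) was higher in roots. PSRP3/1, a plastid ribosomal protein, was among those higher in siliques, with 6.57 FPKM in roots and 236 in siliques. Their median log2 ratio was nevertheless 0.58, towards roots, and stayed above 0 under both scalings, at 0.33 and 0.51.

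**Figure D5:**
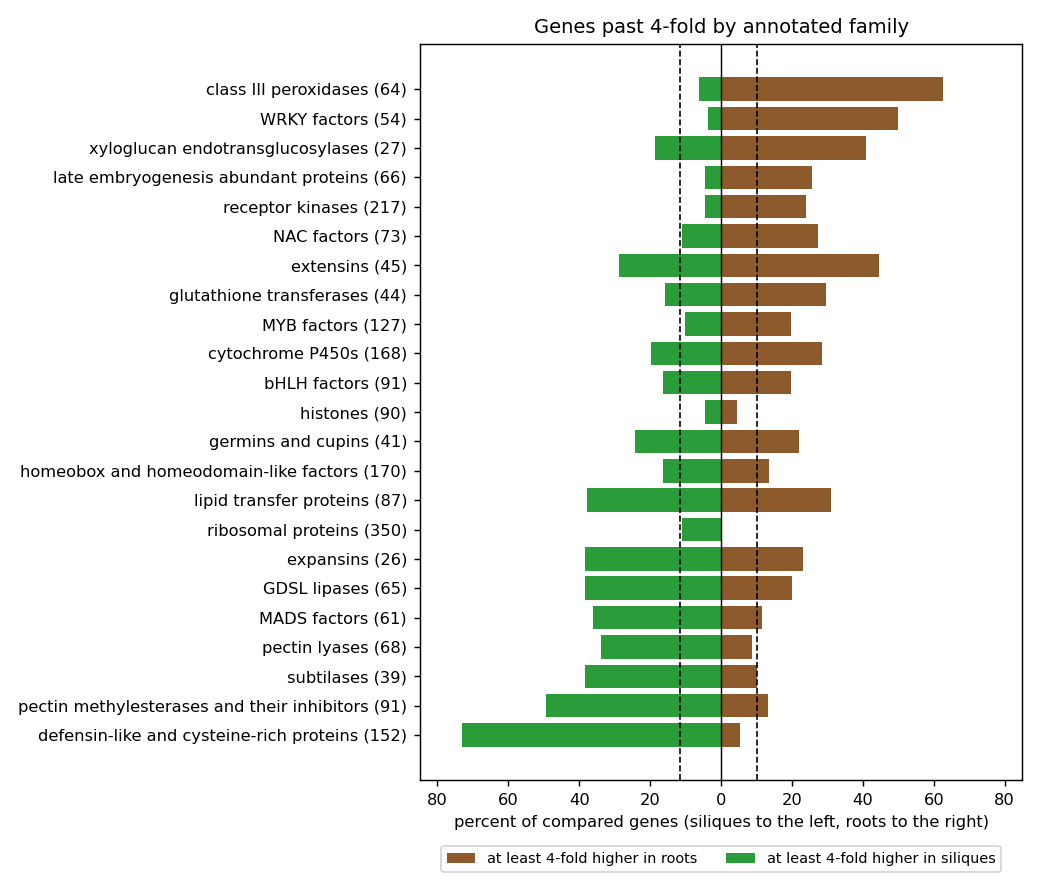
Share of compared genes at least 4-fold higher in roots (brown, to the right) or in siliques (green, to the left) for annotated families of at least 20 compared genes, with the number compared in brackets. Dashed lines mark the shares over all protein-coding genes (10.04% and 11.6%). Class III peroxidases reach 62.5% in roots and defensin-like and cysteine-rich proteins reach 73.0% in siliques. The latter set includes self-incompatibility type proteins.

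Some families were singled out after their values were seen and are given as descriptions. C1 domain proteins had 41 of 91 higher in roots and 2 in siliques, and dirigent-like proteins, which guide lignan and lignin coupling, had 10 of 20 and 3. Higher in siliques were 25 of 66 SAUR-like proteins, small auxin-induced proteins of growing tissue, with 8 higher in roots. Likewise 15 of 26 X8 domain proteins and 13 of 31 ECA1-type proteins were higher in siliques, with 1 and 0 higher in roots. The ECA1 gene AT5G51105 was at 0.141 FPKM in roots and 671 in siliques. Self-incompatibility type proteins, already counted in the defensin-like and cysteine-rich set above, had 20 of 35 higher in siliques and 0 in roots. Of 42 compared genes encoded in the chloroplast genome, 21 (50%) were higher in siliques and 0 in roots. Of 20 mitochondrial genes, 1 (5%) was higher in roots and 0 in siliques. Over all compared loci the shares were 11.5% in siliques and 9.8% in roots.

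Adjacent genes were read for shared direction, with no background to set the counts against. Runs of at least 3 adjacent compared genes past 4-fold in the same direction numbered 42 with 139 genes in roots and 47 with 158 genes in siliques, and the longest held 6 genes in each organ. The longest root run spanned chr4:7401109-7421738 and held AZI1, EARLI1 and 4 related hybrid proline-rich genes. AZI1, known for its part in systemic immunity, was at 415 FPKM in roots and 0.0529 in siliques, and AT4G12520 was at 170 FPKM in roots and listed at 0 in siliques. The longest silique run, at chr3:114290-121534, held 6 ECA1-type genes. Of these AT3G01323 was at 0.0156 FPKM in roots and 81.2 in siliques, and AT3G01322 was the lowest at 4.91 FPKM in siliques.

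Some shorter runs held related genes, and those named here were chosen after their values were seen. Others held unlike products, such as the run of CCR2, NRAMP1 and WRKY40. In roots, the run at chr1:7386839-7400605 held 4 indole glucosinolate methyltransferases, with IGMT1 at 200.2 FPKM in roots and 0.0591 in siliques. Another, at chr3:5566086-5583187, joined the nitrile specifiers NSP1 and NSP4 with PBP1 and JAL31, and NSP1 was at 307 FPKM in roots and 12.5 in siliques. Both hold genes of glucosinolate breakdown or defence. The peptide genes CLE4 to CLE7 formed a run at chr2:13238047-13254706, led by CLE5 at 42.3 FPKM in roots and 0.769 in siliques. In siliques, 4 cysteine-rich genes at chr4:14425441-14432290 formed a run, with LCR21 at 67.3 FPKM in siliques and listed at 0 in roots. The run at chr2:9778877-9802674 held 4 serine carboxypeptidase-like genes, among them SNG1, which makes the sunscreen sinapoylmalate, at 13.5 FPKM in roots and 371 in siliques. Neighbours of the same family are often close copies, so reads may be shared between members of a run.

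Among noncoding loci, AT5G07322 was at 55.9 FPKM in roots and 0.293 in siliques, and the precursor of MIR822 was at 48.8 FPKM in roots and 1.95 in siliques. MIR157a, whose microRNA targets SPL factors, was at 19.2 FPKM in roots and 0.0105 in siliques. In the other direction, AT2G19796 was listed at 0 in the other 3 organs and was at 84.2 FPKM in siliques, AT2G47895 was at 0.367 FPKM in roots and 255.9 in siliques, and AT2G23672 was at 1.57 FPKM in roots, 44.4 in leaves and 40.9 in siliques. The loci of MIR157a, AT2G47895 and AT2G23672 overlap other loci, whose reads may be counted here. Of 140 compared long noncoding RNAs, 8 (5.7%) were higher in roots and 11 (7.9%) in siliques at 4-fold. Both shares lay below the 9.8% and 11.5% of all compared loci.

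Gene structure also differed with direction. Genes past 4-fold had shorter transcripts than the rest, with a median of 1504 bases for the 2005 protein-coding genes higher in roots, 1340 bases for the 2318 higher in siliques and 1706 bases for the remaining 15647. A single exon was annotated for 23.9% of genes higher in roots, 19.8% of those higher in siliques and 14.6% of the rest. Short transcripts with few fragments vary more in FPKM, and the part of this in the difference was not tested.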

How the data were processed

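Per the labels' protocols, DNase-treated total RNA went into TruSeq RNA v2 libraries that were read on a HiSeq 2000. TopHat and Cufflinks were used with the TAIR10 build, per the submitters' processing notes; no source used here gives versions or the strand setting. Per the file headers, the deposited table gives an FPKM, the 2 ends of an interval and a status for each locus and library. No source used here states how wide the intervals were set or whether libraries were scaled to each other. The file holds no counts.

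From these values, log2 of FPKM + 1 was compared with Python 3.11.15, numpy 2.4.6, pandas 2.3.3 and matplotlib 3.10.9, and the steps were tested on simulated data. Loci needed a usable status in both organs and at least 1 FPKM in either. Of the 21858 compared loci, 20969 carried 1 gene code, 728 joined several genes and 161 had no gene name. Status marks for too much data took out 3 loci in roots (PYK10, EXT3 and AT3G09250) and 13 in siliques (among them RBCS1A, CAB1 and a block of neighbouring loci on chromosome 4). Summed over usable loci, FPKM reached 661536 in roots and 712230 in siliques. Coordinates follow the table, shifted to count from 1. Of 30132 loci checked, 99.95% overlapped the same code in the TAIR10.1 reference, which gave names, families and the sequences, credited to RefSeq.

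The 31 gene lists hold 439 entries. Of these, 385 were compared, 47 were under 1 FPKM in both organs, 2 had no usable value, 4 shared a locus and 1 was not found. For 412 the reference carries the same symbol, and 72 overlap another locus. Genes named are the 10 with the largest ratio per direction at loci of 1 code, 5 per direction with separate intervals, up to 5 list members along and 2 against the list median, up to 2 per family and direction, 3 noncoding loci per direction, and the members of the lipid transfer, aquaporin, PIN and MADS lists; some genes that the rule names are not reported here. Other list members and run members named for their role were chosen after their values were seen. Members and lists were chosen with earlier results of these data known.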

Additional observations from a re-analysis of the deposited data

How the results depend on the processing

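No result changed direction among those past 2-fold in the pseudocount, filter, scaling, status and gene code alternatives, and the number of 4-fold genes moved by over 1.5 times only with a larger pseudocount or another call rule. A pseudocount of 5 FPKM gave 954 genes higher in roots and 1313 in siliques, 2-fold gave 4595 and 4667, 8-fold gave 1089 and 1485, and separate intervals gave 175 and 186. Median of ratios scaling multiplied silique values by 1.204, a shift of 0.27 on the log2 scale, and moved the roots' share of 4-fold genes from 46.1% to 40.3%; upper quartile scaling gave 44.3%. List medians depended on the pseudocount because many members are near 0 in the lower organ. With 0.1 FPKM they were 5.45 for mineral uptake, 7.40 for root hair, 4.18 for endodermis, 3.14 for root apex, 6.33 for triterpenes, 8.73 for ER bodies, 4.39 for root MADS, -8.72 for carpel MADS, -4.85 for fruit wall, 3.46 for seed storage, -3.99 for seed regulators, -5.00 for seed coat, -5.02 for endosperm, -5.53 for lipid transfer proteins, -3.86 for stomata, 1.76 for aquaporins, -5.02 for pollen, -4.15 for petal and stamen identity and 1.75 for noncoding RNAs. With 5 FPKM, in the same order, they were 3.29, 2.70, 2.01, 0.83, 1.496, 5.72, 1.77, -4.05, -1.28, 0.83, -0.58, -2.78, -0.70, -2.93, -0.62, 0.51, -0.71, -0.45 and 0.49, with -0.78 for seed sugar supply, -3.23 for chlorophyll and -3.37 for cuticle. Without the filter on low values the medians were -1.39 for fruit wall, 0.97 for seed storage, -0.92 for seed regulators, -4.25 for cuticle, -2.58 for lipid transfer proteins, -0.84 for stomata and -0.20 for pollen. With at least 5 FPKM they were 3.93 for triterpenes, -3.18 for seed regulators, -3.23 for endosperm, -1.21 for seed sugar supply, -3.07 for stomata, -4.67 for pollen and -6.16 for petal and stamen identity. Of the 62 list counts at 2-fold, 11 moved by over 1.5 times with a pseudocount of 5 FPKM, among them root apex (11 to 4), seed storage in roots (11 to 4), endosperm (9 to 4), stomata (6 to 3) and seed regulators (5 to 2), and 7 moved with at least 5 FPKM. Clock genes higher in roots numbered 4 under both scalings against 7. No paired analysis was possible because each organ has 1 library, so leaving out a replicate could not be done either. Low values limit the comparison, since 1277 genes higher in roots and 1422 higher in siliques were under 1 FPKM in the other organ and their ratio follows the pseudocount.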
